A study of Arabidopsis thaliana with 24 samples.

Results

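The comparison described here sets *Ch1* seedlings after 2 h of high light against *Ch1* seedlings after 1 h of high light. It was chosen by sample group alone. It compares 6 of the 24 RNAseq libraries of the series, 3 at HL 2 h and 3 at HL 1 h. The 0 h libraries are on neither side of its fold changes, but those of HL entered its scaling and estimates of spread. All libraries come from 2-week-old whole seedlings of the *Ch1* mutant in the Col-0 ecotype, which lacks chlorophyll a oxygenase and therefore chlorophyll b. The 0 h libraries carry the same mutation, and wild type was not analysed here. Seedlings came from sucrose plates under a long-day cycle, were first left in water for at least 1 h, and then stood in wells with water under HL (1000 µE) or LL (30 µE), with harvests at 0, 1, 2 and 4 h. Time under the light, time in water and time of day advanced together, and cannot be told apart within HL. The LL series, handled alike, gives the same step from 1 h to 2 h without strong light, in libraries that HL does not share. Per the study's methods the growth light was brighter than LL and dimmer than HL, so LL was itself a change of light.

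Chlorophyll b is needed to build the light-harvesting antenna proteins (LHC) of photosystem II into stable complexes, and nuclear genes for these proteins are known to be turned down in strong light. Cold-regulated (COR) genes encode dehydrins and chloroplast-stabilising proteins, and are known to be driven by CBF transcription factors through a short promoter element, the C-repeat or CRT. Heat shock proteins are chaperones whose transcripts are known to rise within minutes of heat or strong light and to decay when the stress ends.

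MARS-seq reads the 3' end of each transcript, and values are given here as scaled counts relative to the library total (CPM). Library totals were 1706415 to 1919956 counts at HL 2 h and 1776360 to 2070855 counts at HL 1 h, and 11166 genes were tested. The study's methods describe pools of whole seedlings as biological replicates for RNA extraction, and do not say so separately for the 3 libraries of a group or whether these were treated on separate occasions. What the p-values of the HL comparison capture is the spread within all HL groups, HL 0 h and HL 4 h included, since these were fitted together. This spread may be technical. With 3 libraries against 3 no exact permutation p below 0.1 is possible, and none is given. The summed level of 10 root markers was 609 to 769 CPM at HL 2 h and 699 to 1050 CPM at HL 1 h, and that of 8 shoot markers was 6469 to 7808 CPM at HL 2 h and 8028 to 12232 CPM at HL 1 h. The part of these sums in the results was not tested, and in whole seedlings fewer cells of a type and less RNA per cell cannot be told apart. The gene mutated in *Ch1* was not analysed here.

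One LL library stood apart from its replicates and bears on the HL comparison. In LL 2 h replicate 2, 372 genes lay at less than 0.5 of their level in the lower of the other LL 2 h libraries, among 5913 genes at 10 CPM or more in both of these, and 53 genes stood out in the opposite way. The mean level of the 371 of them in the HL table differed between libraries of 1 group elsewhere too. Relative to the mean of all 24 libraries, their mean level on the log2(CPM + 1) scale was -0.32, -0.80 and -0.65 at HL 2 h, and 0.32, 0.07 and -0.28 at HL 1 h. It spread from -1.26 to -0.25 within HL 0 h and from -0.88 to 0.90 within LL 2 h. HL 1 h replicate 1 was thus the highest of the 12 HL libraries for these genes. They were picked after their values were seen, and their common cause was not tested. Genes of this set are named as such where they occur.

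**Figure D1:**
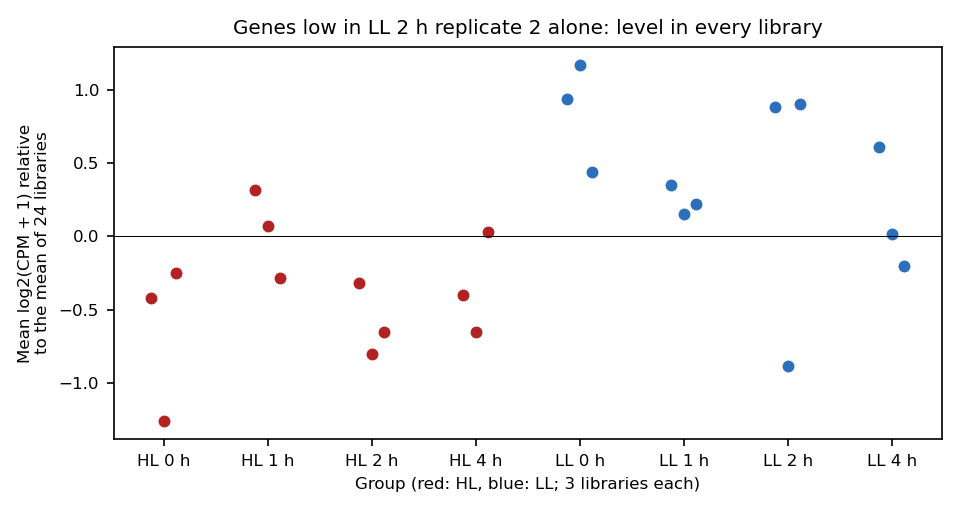
Mean level of 371 genes that were low in LL 2 h replicate 2 alone, on the log2(CPM + 1) scale relative to the mean of 24 libraries, with 1 point per library and 3 libraries per group. The HL 2 h libraries lie at -0.32, -0.80 and -0.65 and the HL 1 h libraries at 0.32, 0.07 and -0.28, while the LL 2 h libraries range from -0.88 to 0.90.

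Between 1 h and 2 h of HL, 19 genes were higher at 2 h (0.17% of the genes tested) and 50 were lower (0.448%). A gene was called where edgeR's quasi-likelihood test gave a Benjamini-Hochberg adjusted p under 0.05 and the change reached 2-fold. The falls included 7 antenna protein genes and 9 COR genes, and the rises included JMJD5, a gene of the clock list, and LUT5, a gene of the photoprotection and carotenoid list. Log2 fold changes of the 50 lower genes reached -2.75 at the extreme, those of the 19 higher genes from 1.02 to 3.35, and the median over all genes was 0.00. In all 69 genes the 3 libraries at 2 h lay on one side of the 3 at 1 h, against 9.82% of all genes lying wholly above and 11.1% wholly below. The calls were made from these same libraries and favour such genes, so the separation is no further support. Of the 50 lower genes, 42 reached a mean of 20 CPM in the higher group, as did 14 of the 19 higher genes.

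**Figure D2:**
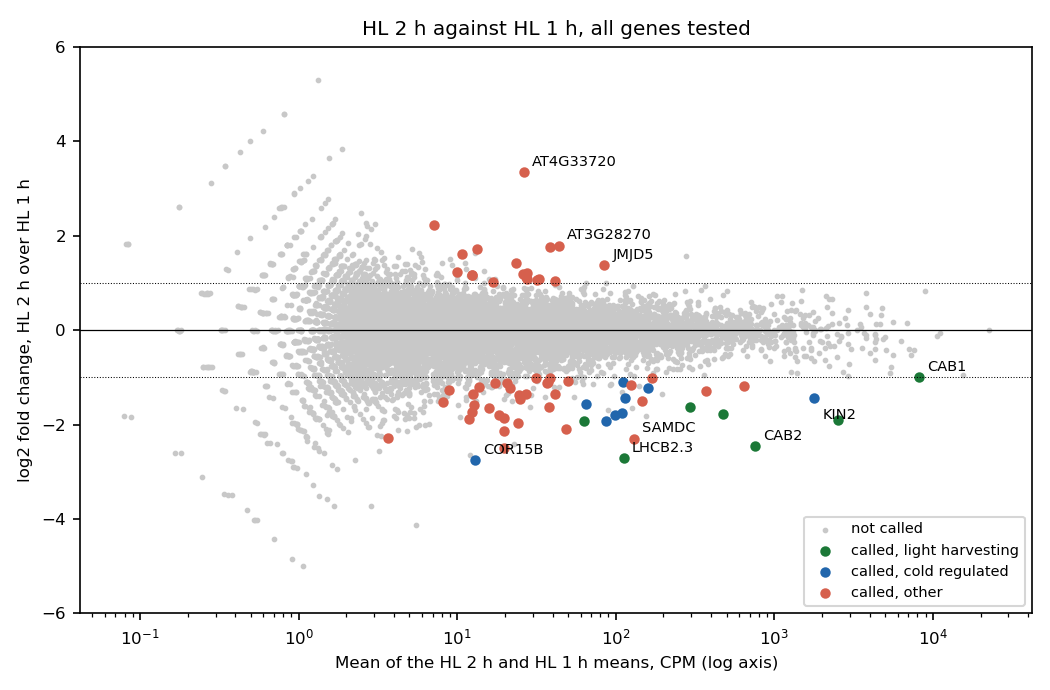
Log2 fold change of HL 2 h over HL 1 h against the mean of both group means in CPM (log axis), with 1 point per gene and dotted lines at 2-fold. Of 11166 genes, 50 were called lower, among them 7 light-harvesting genes (green) and 9 cold-regulated genes (blue), and 19 were called higher.

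How firmly a call stands differed between genes. Under 11 alternatives, of which 6 left out a library, all 69 genes kept their direction and 17 kept their call throughout. These were LHCB2.3, CAB2, CAB3, LHCB2.1, LHCB2.2, LTI78, LTI30, ERD10, LEA14, AT2G38240 and AMT2 among the lower genes, and AT4G33720, AT3G28270, JMJD5, NdhT, HB22 and cPT4 among the higher. The count of lower genes was 23 without HL 1 h replicate 1, 29 without HL 2 h replicate 2 and 24 without HL 2 h replicate 3. The count of higher genes was 10 without HL 1 h replicate 2 and 12 without HL 2 h replicate 2.

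Of 21 light-harvesting genes measured, 7 were called lower and none higher, with a median log2 fold change of -0.88 against 0.00 over all genes, and 14 passed the adjusted p without regard to fold. The summed level of the shoot markers was also lower at 2 h, at 6469 to 7808 CPM at HL 2 h and 8028 to 12232 CPM at HL 1 h. Abundant members such as RBCS1A (log2 fold change -0.79) weigh most in this sum. RBCS1A is 1 of the 371 genes low in LL 2 h replicate 2, so the lower sum need not be a shift of shoot markers in general. Over the 8 markers the median log2 fold change was -0.14, with 3 above 0 and 5 below, and none was called. The part of the sum in the antenna falls was not tested. LHCB2.3, an LHCB2 protein of the mobile trimeric antenna of photosystem II, was at 31.0, 26.4 and 31.4 CPM at HL 2 h, against 229, 194 and 161 CPM at HL 1 h. Its log2 fold change was -2.71 ± 0.19 (SE, adjusted p = 1.01e-07, edgeR). The lowest library at 1 h was thus several times the highest at 2 h.

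The other LHCB2 copies fell by less. LHCB2.1 was at 230, 196 and 224 CPM at HL 2 h, against 753, 773 and 692 CPM at HL 1 h (log2 fold change -1.77 ± 0.13, adjusted p = 1.59e-07, edgeR). LHCB2.2 was at 135, 143 and 155 CPM at HL 2 h, against 469, 473 and 402 CPM at HL 1 h (log2 fold change -1.63, adjusted p = 9.74e-07, edgeR). For both genes the groups were far apart and the libraries within a group were close.

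The LHCB1 family encodes the most abundant antenna protein, and its copies spread widely. CAB2 was at 230, 189 and 275 CPM at HL 2 h, against 1482, 1337 and 995 CPM at HL 1 h (log2 fold change -2.46 ± 0.18, adjusted p = 1.59e-07, edgeR). CAB3 was at 1135, 957 and 1098 CPM at HL 2 h, against 4156, 4291 and 3446 CPM at HL 1 h (log2 fold change -1.90, adjusted p = 2.87e-06, edgeR). CAB1, the most abundant of the called genes, was at 5404, 5124 and 5721 CPM at HL 2 h, against 12268, 10769 and 9500 CPM at HL 1 h. Its change (adjusted p = 0.000215, edgeR) sat on the 2-fold limit, and its call ended under 8 of the 11 alternatives, most of which moved it by 0.01 or less. LHCB1.5 and LHCB1.4 lay just short of the limit, at -0.94 and -0.91. The LHCB1 copies are near-identical in sequence, as are those of LHCB2, so how their reads were split between copies is uncertain.

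Among the remaining antenna genes, LHCB3 was at 31.5, 27.5 and 19.1 CPM at HL 2 h, against 177, 75.0 and 47.3 CPM at HL 1 h (log2 fold change -1.93 ± 0.35, adjusted p = 0.00597, edgeR). Its log2 fold change was -1.21 without HL 1 h replicate 1, and its call ended without HL 2 h replicate 3. It belongs to the 371 genes low in LL 2 h replicate 2, and at LL 2 h it was at 93.7 and 90.4 CPM in replicates 1 and 3 but at 15.4 CPM in replicate 2. LHCB4.2, LHCA4, LHCB6, LHCA1 and LHCA3, minor antenna proteins of photosystem II and antenna proteins of photosystem I, passed the adjusted p with log2 fold changes from -0.90 to -0.43. LHCB4.1 was lower by only 0.19 on the log2 scale (adjusted p = 0.453), and LHCA5, LHCA6 and LHCB4.3 had values above 0 (0.28, 0.34 and 0.57) that missed the test. These 9 genes were singled out after their values were seen.

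Antenna transcripts were already lower at 1 h than at 0 h, as means. Mean levels of CAB2 at 0, 1, 2 and 4 h of HL were 12611, 1271, 231 and 49.5 CPM, and those of LHCB2.1 were 3468, 740, 217 and 124 CPM. LHCB2.3 reached 29.6 CPM at 2 h and was at 26.4 CPM at 4 h, while CAB1 went on to 2438 CPM at 4 h. HL 4 h was also compared with HL 0 h, in libraries outside the 1 h and 2 h groups but within the same fit. There 16 of the 21 antenna genes were lower and 3 higher.

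**Figure D3:**
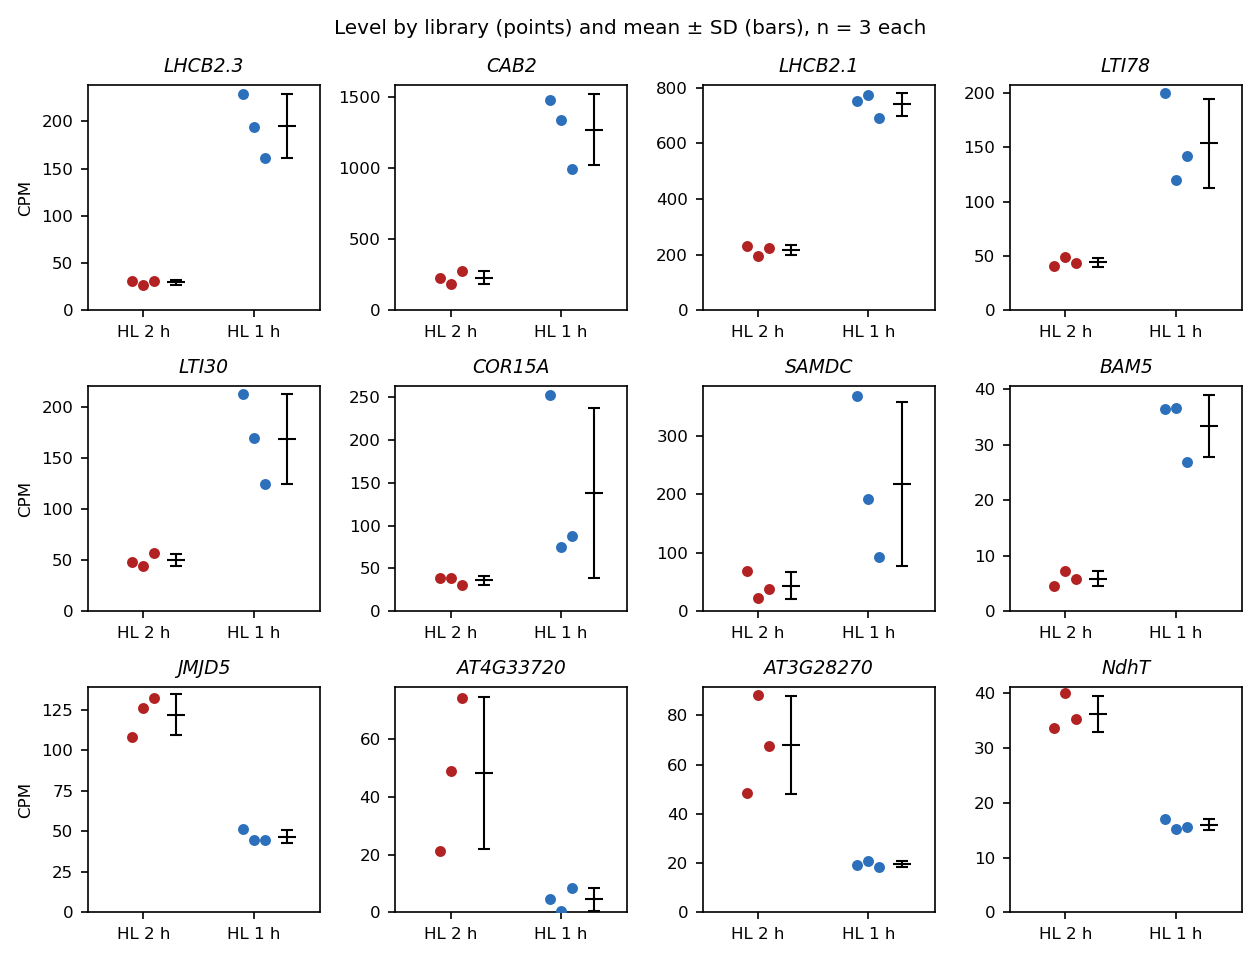
CPM of 12 called genes in each HL 2 h (red) and HL 1 h (blue) library, with the mean and SD of 3 libraries as black bars and axes that start at 0. The 2 groups do not overlap for any gene shown, and COR15A and SAMDC spread widely at HL 1 h (75.0 to 252 CPM and 92.2 to 368 CPM).

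COR genes were the other large group. Of 16 cold-regulated genes measured, 9 were called lower and none higher, with a median log2 fold change of -1.44 against 0.00 over all genes. LTI78 (RD29A), the classic CRT-driven gene, was at 40.7, 48.9 and 43.6 CPM at HL 2 h, against 200, 120 and 142 CPM at HL 1 h (log2 fold change -1.79 ± 0.20, adjusted p = 4.22e-05, edgeR). The dehydrin gene LTI30 was at 48.8, 44.9 and 56.8 CPM at HL 2 h, against 213, 170 and 125 CPM at HL 1 h (log2 fold change -1.75, adjusted p = 0.00142, edgeR). ERD10, another dehydrin gene, was at 94.1, 87.1 and 106 CPM at HL 2 h, against 266, 209 and 194 CPM at HL 1 h (log2 fold change -1.22, adjusted p = 0.000254, edgeR). In each of these 3 genes the libraries at 2 h agreed closely and those at 1 h spread more.

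The COR15 pair encodes chloroplast-stabilising proteins. COR15B was at 4.07, 2.25 and 3.43 CPM at HL 2 h, against 35.4, 13.1 and 19.4 CPM at HL 1 h, and its log2 fold change of -2.75 ± 0.45 (adjusted p = 0.00273, edgeR) was the largest fall called. It rests on 19 counts at 2 h and 128 counts at 1 h, and its call ended under DESeq2. COR15A was at 39.1, 38.8 and 30.4 CPM at HL 2 h, against 252, 75.0 and 88.0 CPM at HL 1 h (log2 fold change -1.93 ± 0.42, adjusted p = 0.0201, edgeR). Without HL 1 h replicate 1, where it was highest, its log2 fold change was -1.16 and its call ended. The call of COR15A also ended under DESeq2 and without each HL 2 h replicate in turn, in all under 5 of 11 alternatives.

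That library was also the highest for the neighbouring genes KIN1 and KIN2 and for COR413IM1. KIN2, the most abundant of them, was at 800, 1300 and 791 CPM at HL 2 h, against 3809, 1666 and 2342 CPM at HL 1 h (log2 fold change -1.44, adjusted p = 0.0072, edgeR). Without HL 1 h replicate 1, 5 cold-regulated genes were called lower in place of 9. ERD7 (log2 fold change -1.09) completed the called members. COR47, another dehydrin gene, passed the adjusted p with a log2 fold change of -0.65 (adjusted p = 0.00318, edgeR), and the transcripts of the upstream regulators CBF1 and CBF2 averaged under 0.2 CPM in both groups. KIN1 and KIN2 are near-identical copies, so the split of reads between them is uncertain.

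Over the whole HL course LTI78 averaged 817, 154, 44.4 and 22.3 CPM at 0, 1, 2 and 4 h. KIN2 behaved otherwise, with 2798, 2605, 963 and 200 CPM, so that most of its fall came after 1 h. The next 4 genes were called lower, are not members of the list and were chosen after their values were seen. LEA14 and AT2G23120 encode late embryogenesis abundant proteins, and were at 215 ± 13.4 and 392 ± 18.3 CPM at HL 2 h, against 525 ± 123 and 892 ± 184 CPM at HL 1 h (SD, n = 3 each). AT4G37220, annotated as a WCOR413-family cold acclimation protein, was at 11.2, 4.49 and 9.31 CPM at HL 2 h, against 34.8, 34.1 and 24.6 CPM at HL 1 h (log2 fold change -1.87, adjusted p = 0.00698, edgeR). The plasma membrane aquaporin gene RD28 was at 113, 118 and 107 CPM at HL 2 h, against 239, 256 and 188 CPM at HL 1 h.

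The promoters of 4 of the lower genes that hold more than 1 CRT core are shown as background to the COR falls, as the 250 bases before the annotated start in RefSeq TAIR10.1. They are written 5' to 3' on the strand of the gene, with CCGAC, in either orientation, in capitals. LTI78 lies on the plus strand (chr5:21240467-21240716), LTI30 on the plus strand (chr3:18940393-18940642), COR15A on the minus strand (chr2:17712331-17712580) and ERD7 on the minus strand (chr2:7757930-7758179).

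LTI78: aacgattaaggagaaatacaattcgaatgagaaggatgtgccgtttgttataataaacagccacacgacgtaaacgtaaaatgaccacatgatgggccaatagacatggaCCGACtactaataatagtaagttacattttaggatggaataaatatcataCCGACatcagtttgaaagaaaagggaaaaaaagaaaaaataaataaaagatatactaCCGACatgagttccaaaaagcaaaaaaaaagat
LTI30: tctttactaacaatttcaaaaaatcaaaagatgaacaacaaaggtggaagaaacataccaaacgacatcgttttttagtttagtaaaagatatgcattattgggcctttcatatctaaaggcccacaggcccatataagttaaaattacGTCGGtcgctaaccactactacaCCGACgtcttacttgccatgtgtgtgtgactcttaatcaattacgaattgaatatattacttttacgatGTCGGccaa
COR15A: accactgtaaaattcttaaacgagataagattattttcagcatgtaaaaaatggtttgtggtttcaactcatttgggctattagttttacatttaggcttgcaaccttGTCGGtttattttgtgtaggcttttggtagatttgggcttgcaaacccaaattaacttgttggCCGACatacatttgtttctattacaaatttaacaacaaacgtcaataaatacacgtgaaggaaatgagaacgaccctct
ERD7: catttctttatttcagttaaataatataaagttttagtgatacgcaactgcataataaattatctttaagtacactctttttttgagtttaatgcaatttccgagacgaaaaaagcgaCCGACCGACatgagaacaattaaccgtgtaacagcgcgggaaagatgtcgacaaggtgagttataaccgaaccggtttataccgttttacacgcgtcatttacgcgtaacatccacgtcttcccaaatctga

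In LTI78 the 3 matches began 140, 90 and 33 bases before the start, in LTI30 101, 78 and 9 bases, in COR15A 142 and 79 bases, and in ERD7 132 and 128 bases, where they overlap. CCGAC on either strand was found in 8 of 49 promoters of the lower genes (16.3%), in 2 of 19 of the higher genes (10.5%) and in 12.8% of the 11018 promoters of genes tested. It was in 6 of 16 promoters of the cold-regulated list (37.5%) and in 4 of the 9 called members (44.4%). COR15B, KIN1, KIN2, ERD10 and COR413IM1 had none of these letters in the window. The G-box CACGTG was in 14.3% of the lower genes' promoters against 7.49% of all, the evening element AAATATCT in 8.16% against 5.4%, the I-box GATAAG in 18.4% against 13% and the W-box TTGAC in 34.7% against 45%. For the remaining motifs searched in both orientations (AAAAATCT, GAANNTTC, AAACCCTA and TGGGCC) the shares among the lower genes were 8.16%, 6.12%, 2.04% and 10.2%, against 6.75%, 9.05%, 3.08% and 16.4% of all promoters.

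Other large falls were in genes of varied function. SAMDC, an S-adenosylmethionine decarboxylase of polyamine synthesis, was at 68.6, 23.6 and 38.7 CPM at HL 2 h, against 368, 192 and 92.2 CPM at HL 1 h (log2 fold change -2.30 ± 0.51, adjusted p = 0.0234, edgeR). Its log2 fold change was -1.68 without HL 1 h replicate 1, and its call ended without replicate 1 or 2 of HL 1 h and without replicate 2 or 3 of HL 2 h. The cell wall-associated kinase gene WAK1 was at 9.15, 5.62 and 6.86 CPM at HL 2 h, against 33.1, 31.0 and 32.2 CPM at HL 1 h (log2 fold change -2.14, adjusted p = 0.0192, edgeR). OPR1, a 12-oxophytodienoate reductase, was at 19.8, 15.7 and 19.1 CPM at HL 2 h, against 113, 82.4 and 42.1 CPM at HL 1 h (log2 fold change -2.10, adjusted p = 0.019, edgeR). All of these, with MCCB of leucine breakdown (log2 fold change -1.96, adjusted p = 0.0494) and AT1G62790, a lipid-transfer-like protein (-1.80, adjusted p = 0.0446), belong to the 371 genes low in LL 2 h replicate 2. The call ended under 5 of 11 alternatives for WAK1, 5 for OPR1, 7 for MCCB and 6 for AT1G62790.

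In all, 11 of the 50 lower genes and none of the 19 higher genes were in that set, namely SAMDC, WAK1, OPR1, MCCB, AT1G62790, LHCB3, PLA2A, PRA8, YLS9, AMT2 and SDH4. That is 2.96% of the 371 genes, against 0.448% of all genes tested, and the median log2 fold change of the set was -0.71. At LL 2 h, SAMDC was at 382, 38.5 and 384 CPM, WAK1 at 49.3, 6.17 and 71.2 CPM and MCCB at 79.4, 9.25 and 75.7 CPM in replicates 1, 2 and 3. The HL 2 h levels of these genes were thus met in a single LL library at the same time. The other 39 lower genes were not in the set.

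Starch and nitrogen metabolism gave single genes. BAM5, a beta-amylase, was at 4.58, 7.30 and 5.88 CPM at HL 2 h, against 36.5, 36.7 and 27.0 CPM at HL 1 h (log2 fold change -2.49 ± 0.48, adjusted p = 0.0105, edgeR), the only called gene of 22 in the starch list. Leaving out replicate 1 or replicate 3 of HL 2 h ended its call, and the list held 0 to 3 called genes over the 11 alternatives. The chloroplast beta-amylase gene BAM3 pointed the other way, at 358 CPM at HL 2 h and 233 CPM at HL 1 h on average (log2 fold change 0.62, adjusted p = 0.0345), short of 2-fold. It was singled out after its values were seen. The glutamate dehydrogenase gene GDH1 was at 81.9, 77.0 and 74.0 CPM at HL 2 h, against 185, 170 and 166 CPM at HL 1 h. The ammonium transporter gene AMT2, one of the 11 genes above, was at 15.3, 13.5 and 12.2 CPM at HL 2 h, against 35.4, 34.6 and 36.4 CPM at HL 1 h. TRE1, the trehalase gene, and the B-box gene BBX28 fell to 13.1 and 20.8 CPM at HL 2 h, against 28.4 and 42.0 CPM at HL 1 h.

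The largest rise was of AT4G33720, a member of the CAP family that includes pathogenesis-related protein 1. It was at 21.4, 48.9 and 74.0 CPM at HL 2 h, against 4.56, 0.525 and 8.51 CPM at HL 1 h, a log2 fold change of 3.35 ± 0.51 (adjusted p = 0.00138, edgeR). It was 4.25 without HL 1 h replicate 3 and 2.84 without HL 1 h replicate 2, and the call held. The gene was at 16.4 CPM at 0 h on average, against 4.53 CPM at 1 h, and it was at 218 CPM at 4 h. In LL its log2 change from 1 h to 2 h was 3.24 (adjusted p = 0.0851, edgeR), and it was at 221, 918 and 439 CPM at LL 4 h. AT3G28270, a protein of unknown function, was at 48.3, 88.2 and 67.6 CPM at HL 2 h, against 19.4, 21.0 and 18.4 CPM at HL 1 h (log2 fold change 1.79 ± 0.23, adjusted p = 0.000255, edgeR). Its mean at 4 h was 289 CPM. The F-box gene AT1G73120 was at 35.6, 52.2 and 91.1 CPM at HL 2 h, against 16.0, 12.6 and 23.7 CPM at HL 1 h.

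JMJD5, a JmjC-domain protein of the circadian clock, was the only called gene of 19 in the clock list. It was at 108, 126 and 132 CPM at HL 2 h, against 51.3, 44.6 and 44.5 CPM at HL 1 h (log2 fold change 1.38 ± 0.14, adjusted p = 1.25e-05, edgeR), and the call held in all 11 alternatives. Its mean was 12.1 CPM at 0 h and 114 CPM at 4 h, so that the level of 2 h was nearly that of 4 h.

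NdhT, a subunit of the chloroplast NADH dehydrogenase-like complex, was at 33.6, 39.9 and 35.3 CPM at HL 2 h, against 17.1, 15.2 and 15.6 CPM at HL 1 h (log2 fold change 1.18, adjusted p = 0.00439, edgeR). CGLD27, of the conserved green lineage set, was at 42.7, 38.8 and 34.3 CPM at HL 2 h, against 17.1, 23.1 and 9.93 CPM at HL 1 h (log2 fold change 1.22, adjusted p = 0.0106). LUT5, a cytochrome P450 that hydroxylates the beta rings of carotenes, was at 20.8, 14.6 and 16.2 CPM at HL 2 h, against 7.98, 8.92 and 6.15 CPM at HL 1 h (log2 fold change 1.17 ± 0.26, adjusted p = 0.0237, edgeR). It was the only called gene of 18 in the photoprotection and carotenoid list, and its call ended under DESeq2 and without each of 5 libraries in turn. HCAR, the reductase of the chlorophyll cycle that turns 7-hydroxymethyl chlorophyll a into chlorophyll a, was at 14.0 ± 1.18 CPM at HL 2 h, against 5.86 ± 1.49 CPM at HL 1 h (SD, n = 3 each, adjusted p = 0.0297, edgeR), and its call ended under 6 alternatives.

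The other rises were of varied kinds, and some of these genes and of the smaller falls above were named after their values were seen. The prenyltransferase gene cPT4 was at 46.3, 39.9 and 47.5 CPM at HL 2 h, against 18.8, 22.6 and 21.3 CPM at HL 1 h, and the homeobox gene HB22 was at 36.6, 33.7 and 42.1 CPM at HL 2 h, against 16.5, 18.9 and 16.1 CPM at HL 1 h. FIB2, the nucleolar fibrillarin of ribosomal RNA modification, was at 41.7, 64.0 and 62.2 CPM at HL 2 h, against 25.7, 25.2 and 30.3 CPM at HL 1 h (log2 fold change 1.04, adjusted p = 0.0146, edgeR). EMB2719, a PCI-domain protein, had 1 of its libraries at 2 h at 8.99 CPM beside 27.5 and 25.0 CPM, against 5.68 to 6.84 CPM at HL 1 h. Further called genes with at least 20 CPM were AT3G05950, AT5G62140, AT2G36430 and AT5G35740, with log2 fold changes of 1.43, 1.07, 1.09 and 1.02. ATC (AT2G27550), ABCG7 and CYP71A25 were called from 11.8, 17.2 and 16.2 CPM at HL 2 h, against 2.55, 7.74 and 5.30 CPM at HL 1 h. The call of ATC ended under DESeq2, without replicate 2 or 3 of HL 1 h and without replicate 1 or 2 of HL 2 h.

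No gene was called in the remaining lists, though some of them leaned one way. Of 23 genes of the Calvin cycle and photorespiration, edgeR's quasi-likelihood test and DESeq2 called 0, while 13 were higher and 1 lower at an unadjusted p under 0.05 and the median log2 fold change was 0.43. That unadjusted p was reached by 732 higher and 933 lower of the 11166 genes tested. CP12-2, a regulator of the cycle, was at 1930 CPM at HL 2 h and 1061 CPM at HL 1 h on average (log2 fold change 0.86, adjusted p = 0.000182), and RBCS2B, a Rubisco small subunit, at 4808 CPM at HL 2 h and 2803 CPM at HL 1 h (0.78, adjusted p = 0.000706). FBA1 and FBA2, chloroplast aldolases, also passed the adjusted p, at 0.59 and 0.43. RBCS1A, another small subunit and 1 of the 371 genes, was at 4002 CPM at HL 2 h and 6898 CPM at HL 1 h (-0.79, adjusted p = 0.302). The genes of this paragraph were singled out after their values were seen.

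Early stress genes lay lower at 2 h without a called change. All 23 genes of the touch and rapid stress list had a log2 fold change below 0, with a median of -0.47, and none was called by edgeR or DESeq2. At an unadjusted p under 0.05, 13 were lower and 0 higher, beside 933 lower and 732 higher of all 11166 genes, and TCH3 (-0.59, adjusted p = 0.0156) and ZAT6 (-0.62, adjusted p = 0.0244) passed the adjusted p. Of 25 jasmonate genes and 17 genes of darkness and sugar starvation none was called by either tool, with medians of -0.20 and -0.38 and 6 lower and 0 higher genes in each at the same unadjusted p. DIN6, an asparagine synthetase induced in darkness, missed the limit narrowly, at 1967 CPM at HL 2 h and 3883 CPM at HL 1 h (-0.98, adjusted p = 0.00137). The lean was not particular to HL. From 1 h to 2 h of LL the medians of the touch, jasmonate and darkness lists were -0.45, -0.11 and -0.53. In these lists 2, 3 and 1 genes were called lower in LL, and 0 higher.

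The marker genes of the study for reactive oxygen species that were analysed here did not pass the test in the step from 1 h to 2 h of HL. One of its singlet oxygen genes, AT3G01830, was not analysed here. For singlet oxygen, BAP1 was at 65.6, 42.1 and 34.8 CPM at HL 2 h, against 58.2, 54.6 and 76.2 CPM at HL 1 h (log2 fold change -0.41, adjusted p = 0.418, edgeR), and AT5G13200 and AT5G64870 had values of -0.46 and -0.57. For superoxide, the ferritin gene FER1 was at 1915, 1732 and 1595 CPM at HL 2 h, against 1521, 1416 and 1266 CPM at HL 1 h (0.32, adjusted p = 0.215), and its groups did not overlap. FER4, MYBL2 and AT4G21870 were at 7.59 CPM or less at HL 2 h, with log2 fold changes of -1.30, -0.14 and 0.40. AT4G21870 was at 7.30 CPM or more in each HL 2 h library, against 6.27 CPM or less in each HL 1 h library, so its groups did not overlap either. Among these 7 genes edgeR and DESeq2 called 0, and at an unadjusted p under 0.05 FER1 alone was higher and none lower. Over the whole HL course, at 4 h against 0 h, BAP1 (log2 fold change -2.04), AT5G13200 (-1.66) and AT5G64870 (-3.26) were called lower. FER1 (1.38) was called higher there, and the other superoxide genes were not called.

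The step from 1 h to 2 h in LL was compared next, since it passes the same hour in water without strong light. In LL 2 h against LL 1 h, 18 of 10930 genes were higher (0.165%) and 68 lower (0.622%), or 48 higher and 79 lower without LL 2 h replicate 2. All 69 genes called in HL were measured in LL. Of the 50 lower in HL, 17 were also called lower in LL, which is 34% of these 50 and 25% of the 68, and none was called higher. The 50 genes had a median log2 fold change of -0.79 in LL and of -1.51 in HL, and 46 of them were below 0 in LL. Of the 19 higher in HL, JMJD5 and FIB2 were also called higher in LL (10.5% of the 19 and 11.1% of the 18), and the median of the 19 was 0.56 in LL and 1.22 in HL.

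In LL, 7 of 21 light-harvesting genes and 8 of 15 cold-regulated genes were called lower and none higher, with medians of -0.77 and -1.15. For LHCB2.3 the log2 change was -2.71 in HL and -2.61 in LL, for LHCB2.1 it was -1.77 in HL and -1.79 in LL, for LTI78 it was -1.79 in HL and -1.84 in LL, and for JMJD5 it was 1.38 in both. Other called members were further apart. LHCB3 had -1.93 in HL and -0.55 in LL, COR15A -1.93 in HL and -2.79 in LL, LTI30 -1.75 in HL and -1.15 in LL, and CAB2 -2.46 in HL and -3.10 in LL. CAB2 was at 230, 189 and 275 CPM at HL 2 h and at 140, 220 and 121 CPM at LL 2 h. The difference between the HL and LL steps was called for none of the antenna or COR genes. It was called for none of the 50 lower genes by edgeR, where its median was -0.51, and for 1 of the 19 higher genes, LUT5. A difference that misses the threshold does not show that the steps were alike.

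**Figure D4:**
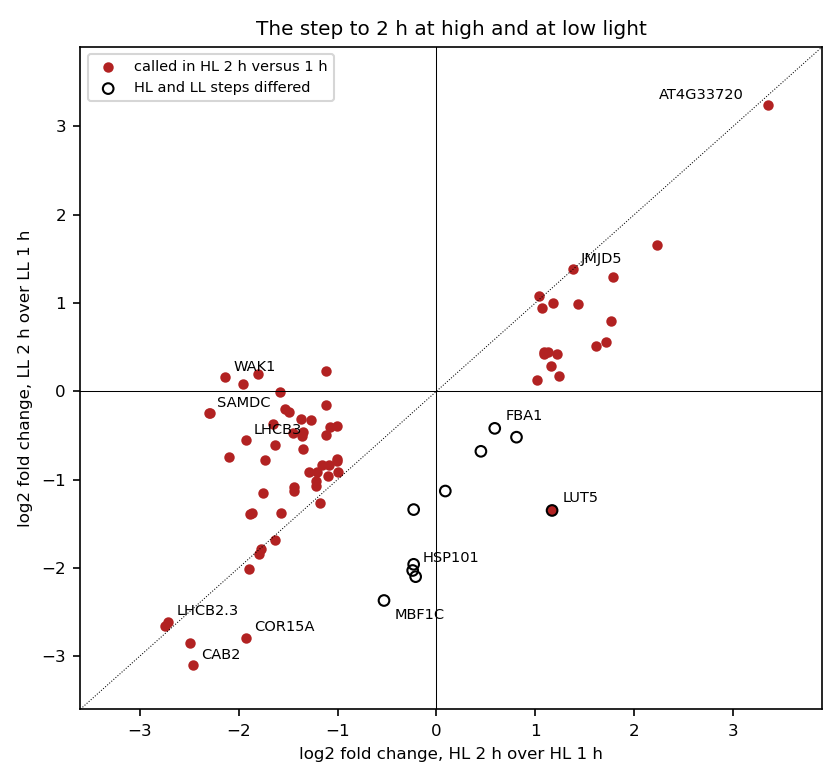
Log2 fold change of LL 2 h over LL 1 h against that of HL 2 h over HL 1 h, for the 69 genes called in HL (red) and the 10 genes whose steps differed (circles), with a dotted line where both are equal. LHCB2.3 and JMJD5 lie near the line, SAMDC and WAK1 lie near 0 on the LL axis, and the circled genes lie below the line.

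Log2 changes are compared here with their sign, so a smaller fall in HL counts as a larger change. In 1 fit of all 24 libraries, 10 of 10349 genes (0.0966%) had a larger log2 change in HL than in LL at the adjusted p and a difference of at least 1. None had a smaller one in edgeR's quasi-likelihood test or in DESeq2, with 371 genes at an unadjusted p under 0.05 in that direction and 483 in the other. Without LL 2 h replicate 2, 27 genes had a larger and 7 a smaller change in HL. MBF1C, a transcriptional coactivator of the heat response, was at 280, 272 and 232 CPM at HL 2 h, against 318, 444 and 366 CPM at HL 1 h. At LL 2 h it was at 95.1, 59.4 and 75.7 CPM, against 503, 360 and 323 CPM at LL 1 h. Its log2 change was -0.53 in HL and -2.37 in LL, and the difference was 1.88 ± 0.25 (SE, adjusted p = 0.000278, edgeR).

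HSP101, the disaggregase chaperone, was at 65.6, 49.4 and 58.3 CPM at HL 2 h, against 59.9, 76.1 and 69.1 CPM at HL 1 h. At LL 2 h it was at 10.7, 18.5 and 18.6 CPM, against 90.2, 52.7 and 51.2 CPM at LL 1 h, and the difference of the steps was 1.83 ± 0.32 (adjusted p = 0.0103, edgeR). Leaving out replicate 1 of HL 1 h, of LL 1 h or of LL 2 h ended the call, with a highest adjusted p of 0.0776. AT2G20560, a DNAJ heat shock protein, differed by 1.77 ± 0.28 (adjusted p = 0.00308), being at 91.0, 78.1 and 83.8 CPM at HL 2 h, against 83.8, 115 and 97.9 CPM at HL 1 h. AT1G14200, a RING/U-box protein, differed by 1.93 ± 0.22 (adjusted p = 3.28e-05) and was at 177, 147 and 162 CPM at HL 2 h, against 168, 200 and 193 CPM at HL 1 h, while its mean at LL was 49.9 CPM at 2 h and 213 CPM at 1 h.

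**Figure D5:**
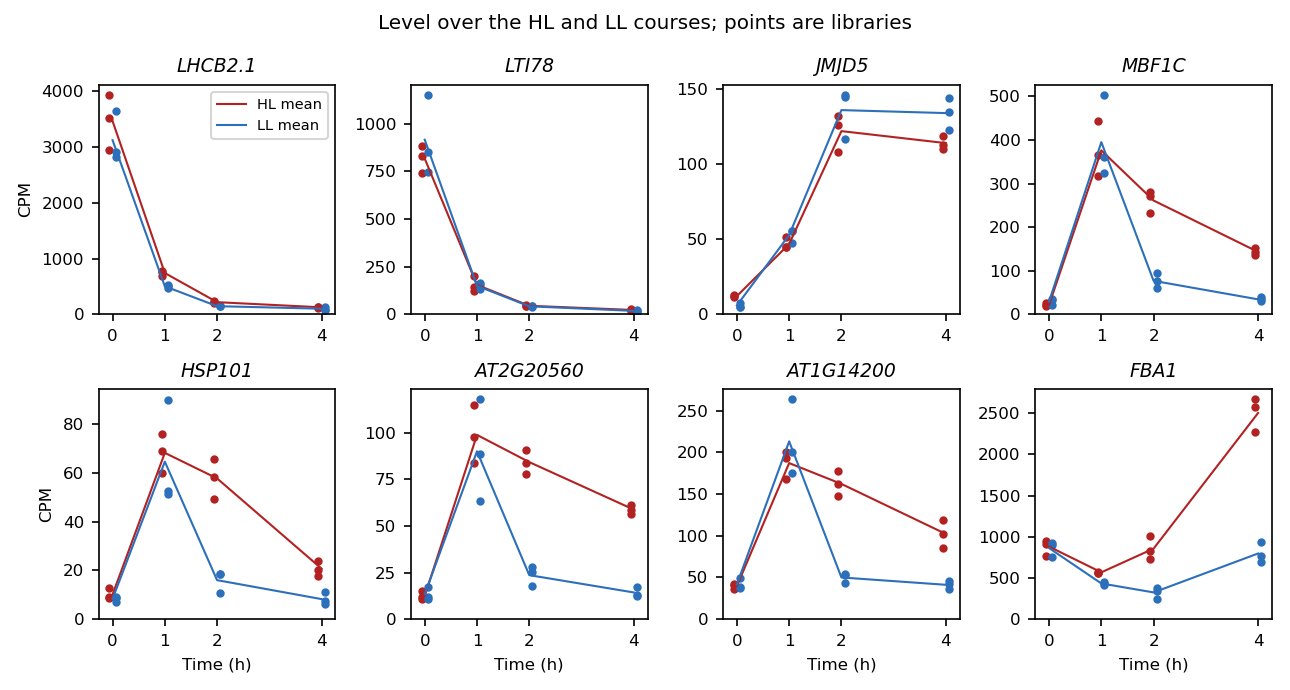
CPM of 8 genes at 0, 1, 2 and 4 h of HL (red) and LL (blue), with 1 point per library and lines through the means of 3. LHCB2.1, LTI78 and JMJD5 follow similar courses at both light levels, whereas MBF1C, HSP101, AT2G20560 and AT1G14200 stand higher in HL from 2 h on.

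As a list, the 29 heat shock genes gave no call in HL by edgeR or DESeq2, with a median log2 fold change of -0.23. At an unadjusted p under 0.05, 6 of them were lower and 0 higher, beside 933 lower and 732 higher of all 11166 genes. In LL, 6 of 26 were called lower, with a median of -0.63. Among the 26 genes in both tables, MBF1C and HSP101 were called for the difference of the steps, whose median was 0.42 against 0.01 over all genes. HSP70, the major inducible chaperone of the list, was at 867 CPM at HL 2 h and 1122 CPM at HL 1 h on average, with a log2 change of -0.37 in HL and -1.24 in LL. It was singled out after its values were seen. No GAANNTTC was found in the promoters of the 10 genes with a called difference, against 13.8% of 29 heat shock promoters and 9.05% of all.

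A carotenoid gene and a Calvin cycle gene were also among the 10. LUT5 was at 2.15, 3.85 and 2.26 CPM at LL 2 h, against 7.10, 9.25 and 4.87 CPM at LL 1 h, and its difference was 2.56 ± 0.49 (adjusted p = 0.0253, edgeR). FBA1 was at 734, 831 and 1004 CPM at HL 2 h, against 562, 564 and 578 CPM at HL 1 h, while at LL 2 h it was at 245, 382 and 346 CPM, against 416, 434 and 450 CPM at LL 1 h. Its difference was 1.05 ± 0.21 (adjusted p = 0.0344, edgeR). The Calvin cycle and photorespiration list had a median of 0.43 in HL and -0.19 in LL, and FBA1 was the only 1 of its 23 genes called for the difference. AT3G27090, a DCD-domain protein, differed by 1.36 (adjusted p = 0.0296) and was at 75.2, 65.2 and 98.5 CPM at HL 2 h, against 41.1, 48.3 and 47.3 CPM at HL 1 h.

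Where the called genes stood over the whole course was read from HL 4 h against HL 0 h, in 6 libraries outside the groups of that step. These libraries shared 1 fit with the step, and so entered its scaling and its estimates of spread. There 839 of 11166 genes were higher (7.51%) and 912 lower (8.17%). Of the 50 genes lower in the step, 37 were also lower at 4 h against 0 h, which is 74% of the 50 and 4.06% of the 912, and none was higher. Their median log2 fold change was -2.66, against 0.04 for all genes. Of the 19 genes higher in the step, 17 were higher at 4 h against 0 h (89.5% of the 19 and 2.03% of the 839). The 13 lower genes without such a call were SAMDC, SDH4, WAK1, OPR1, PRA8, MCCB, AT1G62790, COR15B, RD28, TRE1, TIF3H1, ELI3-2 and AT3G17110, of which the first 7 belong to the 371 low in LL 2 h replicate 2. SAMDC averaged 103 CPM at HL 4 h and 101 CPM at HL 0 h, and SDH4 35.3 CPM at HL 4 h and 34.1 CPM at HL 0 h. EMB2719 and FIB2 were the higher genes without a called change over the course.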

How the data were processed

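The authors sequenced 3' MARS-seq libraries, and per the submitters' processing notes used bcl2fastq, cutadapt, STAR 2.4.2a, HTSeq and DESeq2. The deposited counts are whole read counts per gene, not normalized by the authors. The deposited normalized values, a signal the authors scaled by DESeq2 size factors, were not used in any test. The deposited log2 values are the authors' regularised log transformation and were not used, nor were the columns of the authors' own fold changes and p-values. How molecular identifiers were handled is not given in the sources used here.

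Counts were tested with edgeR 4.0.16 (R 4.3.3, TMM scaling, quasi-likelihood test, p-values adjusted over all genes). HL used 1 fit of 12 libraries, LL another, and the difference of steps a fit of 24. Samples were grouped by their GEO labels. DESeq2 1.42.0, other scaling, filtering, a replicate block, a fit of 6 libraries and leaving out each library were tried, and the method was tested on simulated data. Names and promoters came from RefSeq TAIR10.1.

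Named genes were the 15 largest called changes each way at 20 CPM or more with groups that did not overlap, per list the 2 called members of lowest p each way, the study's markers, and the 5 largest called differences each way. Members and lists were chosen with earlier results of these data known.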

Additional observations from a re-analysis of the deposited data

Results flagged for a closer look

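Taken with its sign, the log2 change from 1 h to 2 h was larger in HL than in LL for 10 genes. This was by the test of the difference itself in edgeR's quasi-likelihood fit of 24 libraries. All 10 had a log2 change below 0 in LL, though not all were called lower there. LUT5 (-1.35), AT3G27090 (-0.52) and FBA1 (-0.42) missed the adjusted p in LL (0.184, 0.234 and 0.256, edgeR). AT5G26280 (-0.68, adjusted p = 0.027, edgeR) was short of 2-fold in LL. AT1G14200 (-0.21 in HL, -2.10 in LL), MBF1C (-0.53, -2.37), HSP101 (-0.24, -2.03), AT2G20560 (-0.23, -1.96) and AT1G26800 (-0.23, -1.34) were below 0 in HL too. LUT5, AT3G27090, AT3G52060, AT5G26280 and FBA1 were above 0 in HL. The difference was 2.56 for LUT5, 1.93 for AT1G14200, 1.88 for MBF1C, 1.83 for HSP101 and 1.77 for AT2G20560. It was 1.36 for AT3G27090, 1.26 for AT3G52060, 1.17 for AT5G26280, 1.15 for AT1G26800 and 1.05 for FBA1. In AT1G14200, MBF1C and AT2G20560 the call held under all 16 alternatives. LUT5 lost its call under 9 of them, AT3G27090 under 9, AT3G52060 under 9, AT5G26280 under 6, AT1G26800 under 7, FBA1 under 10 and HSP101 under 3.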

How the results depend on the processing

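In HL, 19 higher and 50 lower genes became 31 and 111 in a fit of the 6 libraries only, 71 and 103 with no fold limit, 23 and 71 with the replicate block, and 14 and 39 with DESeq2. Leaving out 1 library gave 10 to 22 higher and 23 to 73 lower genes. The replicate numbers were not taken to pair the libraries, since the correlations of same-numbered deviations were 0.0109, -0.0685 and -0.0583 over 7394 genes. In LL, leaving out 1 library gave 6 to 48 higher and 45 to 79 lower genes, and for the difference of the steps 3 to 27 larger and 0 to 7 smaller in HL. The upper ends of both LL ranges and of both ranges of the difference came without LL 2 h replicate 2. Leaving out libraries for LL, the difference and HL 4 h against 0 h was chosen after seeing the data. None of the 69 called HL genes changed direction under 11 alternatives. Genes of a few CPM, such as FER4, have too few counts for a change to be detectable at this depth.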
